A study of Rattus norvegicus with 2 samples.

Results

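The genes described here are 7 ion transport genes known from the lateral wall of the cochlea: the sodium pump beta subunits Atp1b1, Atp1b2 and Atp1b3, the sodium potassium chloride cotransporter Slc12a2, and the potassium channels Kcnj10, Kcnj16 and Kcnk2. They were taken by gene symbol from the 32623 genes listed for both libraries, and each symbol matched 1 gene. Each was followed through fibrocytes, other mesenchyme, epithelium, glia, neurons and the cells of blood vessels at both ages.

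The sodium pump is made of a catalytic alpha subunit and a beta subunit, and the beta subunit is needed for the enzyme to fold and to reach the cell surface. In the mature inner ear, fibrocytes of the lateral wall take up potassium through the pump and through Slc12a2 and pass it by gap junctions to the stria vascularis, which secretes it into the endolymph. Kcnj10 is an inward rectifier of strial intermediate cells and of glia, Kcnj16 forms mixed channels with it, and Kcnk2 is a background potassium channel that opens on membrane stretch.

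The data were 2 droplet single-cell libraries of cochlear duct cells from Sprague-Dawley rats, 1 at postnatal day 1 (P1) and 1 at postnatal day 7 (P7). The animals were untreated, 40 rats were taken for each age, and no genotype was given. The labels call the cells greater epithelial ridge cells, while the methods describe dissection of the cochlear duct after removal of the stria vascularis, spiral ligament and spiral ganglion. With 1 library per age, age and library cannot be told apart, so no test was made, and every interval below is a 95% interval that covers counting error only.

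The libraries held 14068 barcodes and 114285848 unique molecular identifiers (UMIs, counted transcripts) at P1, and 14501 barcodes and 101264868 UMIs at P7. Limits on genes, UMIs and mitochondrial share left 12779 cells at P1 and 12581 at P7, whose median depth was 6565 and 6878 UMIs; 60 barcodes occurred in both libraries. These cells fell into 24 clusters (RC0 to RC23), made without the 7 genes, and the classes named from markers are written with "-like". Cells of the fibrocyte-like class had the highest level of Otor, the otoraplin gene of lateral wall fibrocytes, although the ligament was to be removed. It was 15445 CPM in the younger and 20732 CPM in the older library (CPM are UMIs scaled to 1000000 UMIs of the class). Otor was one of the markers that named this class, as Epcam was for epithelium-like cells. Their levels are therefore no separate check of the names. Epithelium-like cells, with Epcam at 1156 and 1852 CPM, were only 2.18% of P1 cells and 1.72% of P7 cells, which goes against the label of the samples. No cluster was led by markers of strial marginal or intermediate cells, and neuron-like cells formed a cluster at P1 (289 cells) but not at P7. In other settings the neuron-like class held some P7 cells: 31 with integration by canonical correlation analysis, 13 with 30 principal components and 23 with under 10% mitochondrial UMIs. RC18, led by markers of both glia and neurons, held 154 P1 and 135 P7 cells and was left unnamed. Most classes drew their P1 and P7 cells from different clusters: fibrocyte-like cells were mainly RC0 at P1 (2949 cells) and RC11 at P7 (909 cells), and glia-like cells were mainly RC6 at P1 and RC1 at P7. Other mesenchyme-like cells were RC3 at P1 (2217 cells, with Penk among its leading genes) and RC2 at P7 (2245 cells, with Sfrp4), and interstitial mesenchyme-like cells were RC7 and RC5, so in these classes a ratio between the ages is also one between clusters.

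None of the 7 genes had its highest level in fibrocyte-like cells at either age. Atp1b1 was highest in neuron-like cells at P1. At P7, where there was no neuron-like class to rank, it was highest in epithelium-like cells. Atp1b2 was highest in pericyte-like cells, Atp1b3 in endothelium-like cells, and Slc12a2 in pericyte-like cells at P1 and epithelium-like cells at P7. Kcnj16 was highest in epithelium-like cells, Kcnk2 in mesenchyme with Aldh1a2 and Ccn3, and the few Kcnj10 UMIs came mostly from glia-like cells. The levels by class show these separate patterns, which were not shared between the beta subunits.

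**Figure D1:**
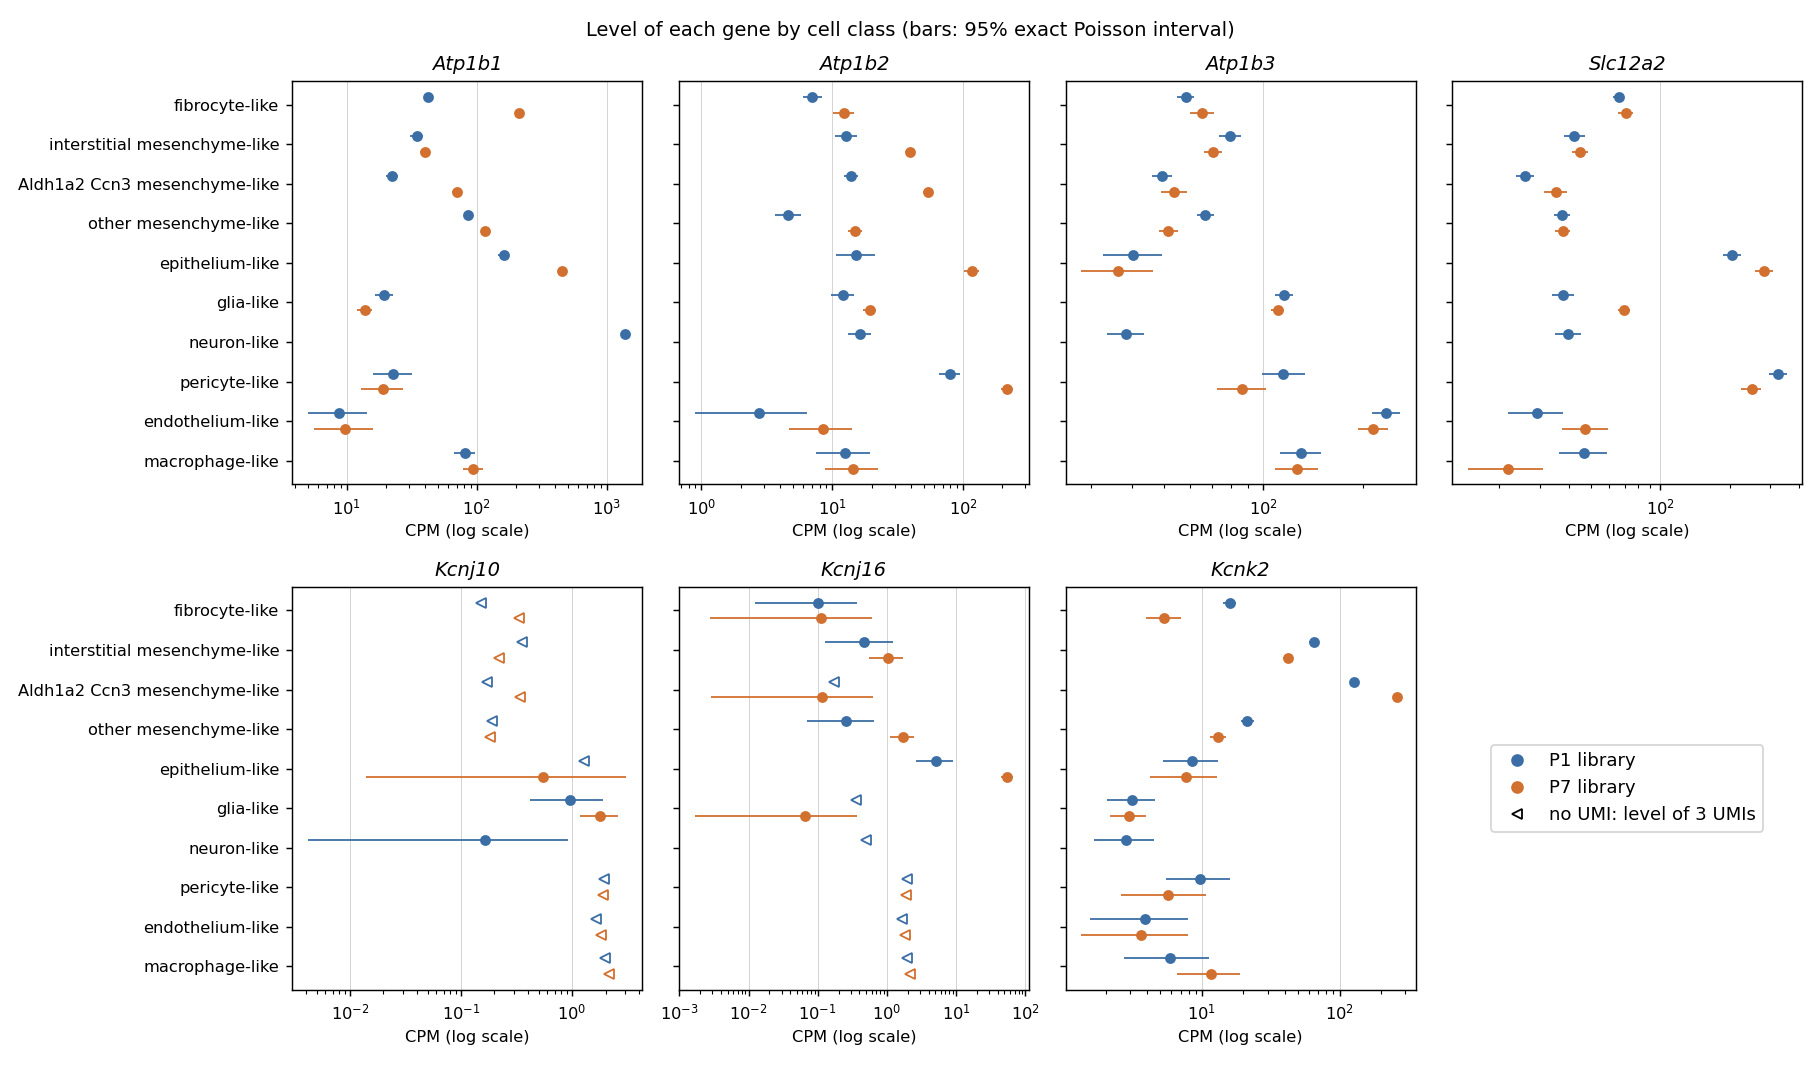
Level of each gene (CPM, log axis) in 10 cell classes of the P1 and P7 libraries, with exact Poisson 95% intervals; open triangles mark classes with no UMI, drawn at the level of 3 UMIs. Atp1b1 reached 1381 CPM in neuron-like cells, Atp1b2 217 CPM in P7 pericyte-like cells, and Kcnk2 263 CPM in P7 Aldh1a2 Ccn3 mesenchyme-like cells.

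Atp1b1 (ENSRNOG00000002934) encodes the beta 1 subunit. In neuron-like cells (RC19) its level was 1381 CPM (1351 to 1411), from 8368 UMIs in 289 cells. These cells were 2.26% of P1 cells and held 64.8% of all Atp1b1 UMIs of that library. In epithelium-like cells (RC14 at both ages) the level was 161 CPM (145 to 178) at P1 and 449 CPM (419 to 481) at P7, a log2 ratio of 1.48 (1.30 to 1.66), which was 0.95 with doublets removed. In fibrocyte-like cells it was 42.5 CPM (39.6 to 45.4) at P1 and 212 CPM (203 to 222) at P7, a log2 ratio of 2.32 (2.21 to 2.44). Fibrocyte-like cells were at rank 5 of 10 classes at P1 and at rank 2 of 9 at P7. The classes ranked at P7 lack neuron-like cells. The 8 P7 barcodes with neuron markers under the upper limit on genes had 897 CPM (617 to 1259).

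Atp1b1 differed in the same direction in Aldh1a2 Ccn3 mesenchyme-like cells, from 22.3 to 70.0 CPM, with a log2 ratio of 1.65 (1.47 to 1.84). It was within 2-fold between the ages in the other 6 classes that both libraries held. One of these, interstitial mesenchyme-like cells, was at 34.38 and 39.98 CPM, a log2 ratio of 0.22 whose sign turned in 4 of 10 settings and which was -1.86 with 30 principal components, where the class held 161 P1 cells. In other mesenchyme-like cells it was 85.1 CPM at P1 and 116 CPM at P7, and in macrophage-like cells it was 80.7 and 93.4 CPM. It was low in glia-like cells (19.2 and 13.7 CPM), pericyte-like cells (22.8 and 18.9 CPM) and endothelium-like cells (8.76 and 9.70 CPM). Over all cells it was lower at P7, 80.7 against 132 CPM, the reverse of fibrocyte-like and epithelium-like cells, in a library with no neuron-like cluster.

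Stmn2, a neuron gene, was also counted in the other P1 classes, at 18.1 to 63.1 CPM against 3525 CPM in neuron-like cells. Neuron-like cells had 0.392 Atp1b1 UMIs for each Stmn2 UMI. At that ratio the Stmn2 of the other classes would come with 24.7 CPM of Atp1b1 in glia-like cells and 7.08 CPM in endothelium-like cells, against 19.2 and 8.76 CPM measured, and with 11.4 of 42.5 CPM in fibrocyte-like cells and 9.98 of 161 CPM in epithelium-like cells. In the P7 library, which had no neuron-like cluster, Stmn2 was at 12.3 CPM in glia-like cells, against 63.1 CPM at P1. In the other P7 classes it was at 0.883 to 4.41 CPM. The part of neuron RNA in the Atp1b1 levels was not tested.

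The difference in fibrocyte-like cells lay mainly between clusters. RC0 had 42.5 CPM in its 2949 P1 cells and 78.0 CPM in its 55 P7 cells, a log2 ratio of 0.88 (0.20 to 1.49), and RC11 had 217 CPM at P7. RC10 (998 P7 cells and 15 at P1) was rich in Otor but had haemoglobin genes among its leading genes and was left unnamed, and its Atp1b1 level was 67.1 CPM. With RC10 counted as fibrocyte-like, a choice made after seeing the data, the log2 ratio between the ages was 1.87. It lay between 1.87 and 3.32 over the 10 other settings tried.

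Atp1b2 (ENSRNOG00000011227), known as the adhesion molecule on glia, had a different pattern. It was highest in pericyte-like cells (RC13 at both ages), the contractile cells of small vessels, with 79.4 CPM (65.9 to 94.8) at P1 and 217 CPM (194 to 241) at P7, a log2 ratio of 1.45 (1.15 to 1.76). Epithelium-like cells had 15.3 CPM (10.7 to 21.2) at P1 and 117 CPM (102 to 134) at P7, with 36 and 212 UMIs, a log2 ratio of 2.93 (2.42 to 3.49). This ratio was 2.00 as a mean over cells of each cell's level. Levels at P7 were also over 2-fold higher in Aldh1a2 Ccn3 mesenchyme-like cells (13.9 to 53.7 CPM), interstitial mesenchyme-like cells, which carry Gpc3 and Dcn (12.8 to 39.2 CPM), and other mesenchyme-like cells (4.63 to 15.1 CPM). The log2 ratio in interstitial mesenchyme-like cells, 1.62, was 0.64 with 30 principal components. In all, Atp1b2 was over 2-fold higher at P7 in 5 of the 8 classes with at least 10 UMIs at each age, 4 of them with at least 20 CPM, and its log2 ratio was above 0 in each of the 8.

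Fibrocyte-like cells were among the lowest classes for Atp1b2, at 7.07 CPM in the younger and 12.3 CPM in the older library. Against all other cells of the library they were at a log2 ratio of -0.78 (-1.05 to -0.52) at P1 and -1.36 (-1.65 to -1.09) at P7. Glia-like cells, despite the name of the protein, had 12.0 and 19.5 CPM, and the P1 classes from rank 2 to 7 of 10 did not differ from their next neighbour in that range beyond counting error.

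Atp1b3 (ENSRNOG00000011501) varied least with age. Its log2 ratio was between -0.41 and 0.16 in all 9 classes present at both ages, so none passed 2-fold. It was highest in endothelium-like cells (RC17), with 236 CPM (214 to 259) at P1 and 216 CPM (194 to 240) at P7. Macrophage-like cells followed with 129.9 and 127 CPM, and glia-like cells with 116 and 111 CPM, and these neighbours did not differ beyond counting error at either age. It was lowest in neuron-like cells (38.3 CPM) and epithelium-like cells (40.3 and 36.4 CPM), where Atp1b1 was highest. A processed copy of Atp1b3 is annotated in the rat, so reads may be shared between them.

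The 250 bases before the transcript start are shown for Atp1b2, which was higher at P7 in most classes, and Atp1b3, which was not. They come from RefSeq (build GRCr8), which held entries for 6 of the 7 genes, and are read 5′ to 3′ on the minus strand of both genes, chr10:54823709-54823958 for Atp1b2 and chr8:105821152-105821401 for Atp1b3. Capitals mark the letters TATAAA and GGGCGG, each searched on both strands.
Atp1b2: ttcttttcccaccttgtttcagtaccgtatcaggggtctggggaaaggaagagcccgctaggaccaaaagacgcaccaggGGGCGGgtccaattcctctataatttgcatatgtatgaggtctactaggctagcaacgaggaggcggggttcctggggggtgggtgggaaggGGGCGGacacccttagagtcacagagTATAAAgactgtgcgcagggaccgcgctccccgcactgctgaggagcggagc
Atp1b3: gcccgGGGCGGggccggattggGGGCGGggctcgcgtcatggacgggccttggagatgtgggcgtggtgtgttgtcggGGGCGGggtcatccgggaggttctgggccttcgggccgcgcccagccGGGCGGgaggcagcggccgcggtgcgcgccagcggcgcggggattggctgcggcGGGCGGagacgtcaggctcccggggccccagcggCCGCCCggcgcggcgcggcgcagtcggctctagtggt
The Atp1b2 stretch held 1 match to TATAAA, starting 52 bases before the transcript start, and 2 to GGGCGG. The Atp1b3 stretch held none to TATAAA and 6 to GGGCGG, and 79.6% of its bases were G or C against 58% in Atp1b2. Of all 33469 promoters of this length, 12.9% held TATAAA and 30.5% held GGGCGG. These matches describe the letters alone.

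Since the capture of a given gene is the same in every class of a library, the shares of the beta subunits can be compared between classes. Of the beta subunit UMIs, Atp1b1 took 96.2% (95.8 to 96.6) in neuron-like cells. In epithelium-like cells it took 74.3% (70.3 to 78.0) at P1 and 74.6% (71.9 to 77.1) at P7, while the share of Atp1b2 was 7.06% and 19.4% and that of Atp1b3 18.6% and 6.04%. In fibrocyte-like cells the share of Atp1b1 was 39.4% (37.3 to 41.5) at P1 and 73.3% (71.5 to 75.0) at P7, and Atp1b3 took 54.0% and 22.5%. The P1 share of Atp1b1 depended on where the class was drawn: it was 15.1% with 30 principal components, 21.1% with doublets removed and at most 43.5% in any setting, while the P7 share was 68.4% to 73.7%. At P7 the share of Atp1b1 in fibrocyte-like cells was thus near that in epithelium-like cells, and at P1 it was not. In pericyte-like cells Atp1b2 took 36.5% (31.4 to 41.9) at P1 and 67.3% (63.0 to 71.3) at P7. Atp1b3 took 95.4% and 92.2% in endothelium-like cells and 78.8% and 76.9% in glia-like cells.

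**Figure D2:**
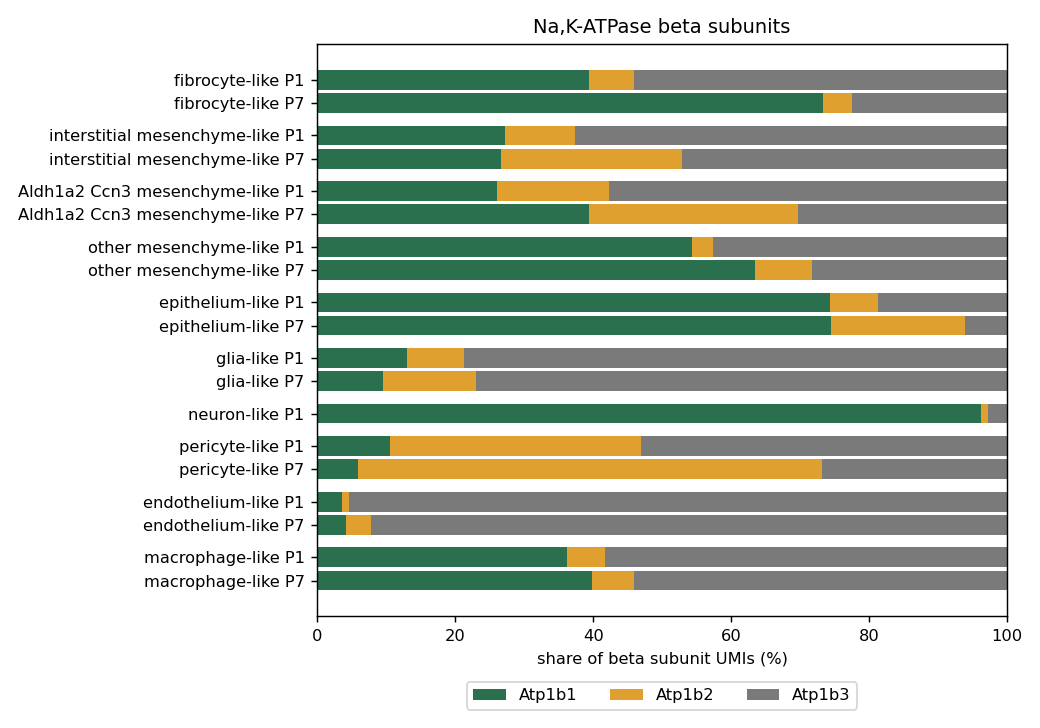
Share (%) of the UMIs of the sodium pump beta subunits taken by each gene, for each class and library. Atp1b1 took 39.4% of beta subunit UMIs in P1 and 73.3% in P7 fibrocyte-like cells.

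Slc12a2 (ENSRNOG00000015971) brings sodium, potassium and chloride into the cell. Pericyte-like cells had 324 CPM (296 to 354) at P1 and 249 CPM (225 to 275) at P7, and epithelium-like cells 205 CPM (187 to 224) and 283 CPM (259 to 309). The order of these classes was reversed between the ages, but at P7 they did not differ beyond counting error. Fibrocyte-like cells were next with 66.0 CPM (62.5 to 69.7) and 70.7 CPM (65.3 to 76.4), above all other cells by log2 0.48 (0.39 to 0.58) at P1 and 0.31 (0.19 to 0.43) at P7. Glia-like cells had 38.0 and 69.3 CPM, a log2 ratio of 0.87 (0.69 to 1.06), and macrophage-like cells 46.6 and 21.7 CPM, with 71 and 30 UMIs, a log2 ratio of -1.10 (-1.77 to -0.47). This difference in macrophage-like cells was 0.25 with doublets removed.

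The Slc12a2 level in P1 fibrocyte-like cells depended on where the class was drawn. The class held 608 to 3545 P1 cells over the settings tried. In the 5 of 10 settings with at most 1166 cells its level was 88.2 to 152.8 CPM, over 2-fold above all other P1 cells. The log2 ratio between the ages, 0.10 (-0.04 to 0.24), lay between -1.19 and 0.21 over these settings. Within RC0 Slc12a2 was at 65.6 CPM at P1 and 31.9 CPM at P7, but the latter is 9 UMIs.

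Kcnj10 (ENSRNOG00000007705) had few UMIs, 12 at P1 and 38 at P7 in all cells. Glia-like cells held 8 and 27 of them, 0.961 CPM (0.415 to 1.89) and 1.77 CPM (1.17 to 2.58). Fibrocyte-like cells held 0 UMIs at both ages, which allows up to 0.151 CPM at P1 and 0.331 CPM at P7 (3 UMIs). With so few UMIs, no difference between the ages was detectable in glia-like cells, with a log2 ratio of 0.88 (-0.29 to 2.23).

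Kcnj16 (ENSRNOG00000004713) had 26 UMIs at P1 and 154 at P7. Of these, 12 and 99 lay in epithelium-like cells, with 5.09 CPM (2.63 to 8.90) and 54.5 CPM (44.3 to 66.4), a log2 ratio of 3.42 (2.55 to 4.42), and it was between 2.95 and 4.54 over the settings tried. Other mesenchyme-like cells held 4 and 28 UMIs, 0.254 and 1.69 CPM. In fibrocyte-like cells 2 UMIs were counted in the younger and 1 in the older library. Kcnj10, which forms channels with Kcnj16, had 0 UMIs in P1 and 1 UMI in P7 epithelium-like cells.

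Kcnk2 (ENSRNOG00000002653) was concentrated in mesenchyme. Aldh1a2 Ccn3 mesenchyme-like cells had 127 CPM (122 to 132) at P1, mostly RC4, and 263 CPM (252 to 274) at P7, mostly RC8, a log2 ratio of 1.05 (0.96 to 1.13), past 2-fold in 6 of 10 other settings. This class held 57.6% of Kcnk2 UMIs at P1 and 62.2% at P7. Interstitial mesenchyme-like cells followed with 65.7 and 41.9 CPM, and other mesenchyme-like cells had 21.4 and 13.1 CPM, both lower at P7 and within 2-fold. The sign of the interstitial mesenchyme-like difference turned in 3 of 10 settings, to 0.28 with cells under 10% mitochondrial UMIs. Fibrocyte-like cells had 15.9 CPM (14.2 to 17.8) and 5.30 CPM (3.91 to 7.03), a log2 ratio of -1.59 (-2.05 to -1.14). Within RC0 the level was 16.0 CPM at P1 and 14.2 CPM at P7, but the latter is 4 UMIs. RC11 had 5.01 CPM at P7. The remaining classes were at 2.80 to 11.6 CPM, and most neighbours among them did not differ beyond counting error.

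**Figure D3:**
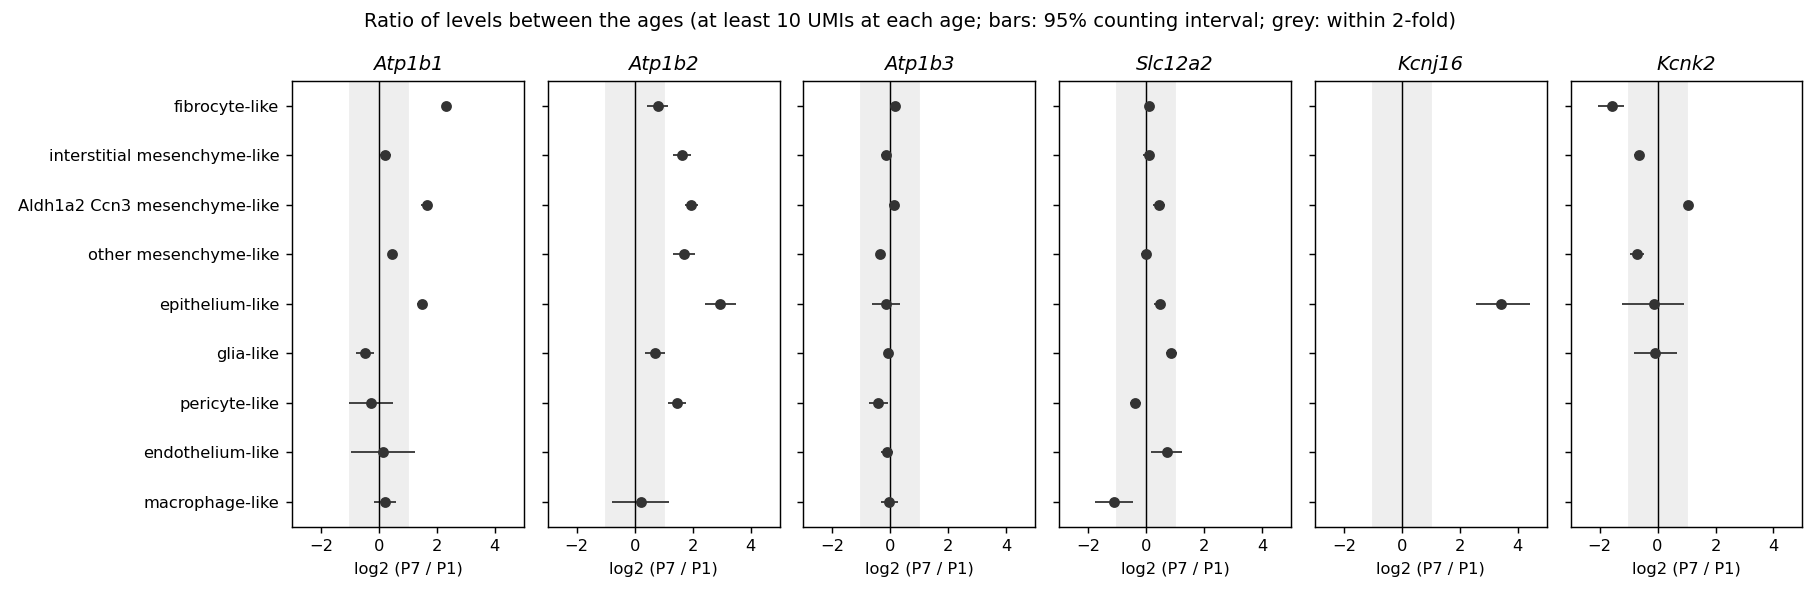
Log2 ratio of the P7 to the P1 level of each gene in the 9 classes present at both ages, where each age had at least 10 UMIs, with 95% counting intervals; grey marks ratios within 2-fold. Atp1b1 stands at 2.32 in fibrocyte-like cells, Atp1b2 to the right of 0 in every class drawn, Atp1b3 within 2-fold throughout, and Kcnk2 on opposite sides in fibrocyte-like (-1.59) and Aldh1a2 Ccn3 mesenchyme-like cells (1.05).

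Set against all other cells of their library, fibrocyte-like cells had 0 of the 4 genes of at least 20 CPM over 2-fold higher at P1 and 2 over 2-fold lower, Atp1b1 (log2 -1.86, -1.97 to -1.76) and Kcnk2 (-1.52, -1.69 to -1.35). Of all 5622 genes of at least 20 CPM, 1.81% were over 2-fold higher and 8.32% lower. The count of higher genes was 1 (Slc12a2) in 5 of 10 other settings. The count of lower genes was 1 in 3 of them, since Atp1b1 was at -0.97 with cells under 10% mitochondrial UMIs and at -0.94 as a mean over cells, and Kcnk2 at -0.95 with doublets removed. At P7, 1 of 5 was higher, Atp1b1 (1.68, 1.60 to 1.75), and 2 were lower, Atp1b2 and Kcnk2 (-3.04, -3.48 to -2.63), beside 3.55% and 8.95% of all genes. Atp1b1 stood below the other P1 cells, which include neuron-like cells, and above the other P7 cells, which do not. Neuron-like cells were 2.26% of P1 cells and held 64.8% of the Atp1b1 UMIs of that library. Among the classes taken singly, fibrocyte-like cells were at rank 5 of 10 for Atp1b1 at P1.

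Between the ages, 1 of the 3 genes of at least 20 CPM in fibrocyte-like cells was over 2-fold higher at P7 (Atp1b1) and 0 were lower, beside 10.8% higher and 6.69% lower of all 5739 such genes. Their median log2 ratio was 0.16 against 0.13 over all genes. In epithelium-like cells 3 of 5 were higher (Atp1b1, Atp1b2 and Kcnj16), beside 11.9% of all genes, with medians of 1.48 and 0.14. In Aldh1a2 Ccn3 mesenchyme-like cells 3 of 5 were higher (Atp1b1, Atp1b2 and Kcnk2), beside 9.75%, with medians of 1.05 and 0.16. In pericyte-like cells 1 of 4 was higher (Atp1b2), beside 7.5%, and in glia-like cells 0 of 2, beside 9.59%. In interstitial mesenchyme-like cells 1 of 5 was higher (Atp1b2), beside 9.35%, in other mesenchyme-like cells 0 of 4, beside 9.36%, since Atp1b2 was under 20 CPM there, and in endothelium-like cells 0 of 2, beside 9.7%. In macrophage-like cells 1 of 3 was lower (Slc12a2), beside 6.12%.

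The share of cells with a UMI was compared after each cell was thinned to 2000 UMIs, which left out 252 P1 and 711 P7 cells. The loss was uneven: 27 of 279 P1 and 72 of 217 P7 epithelium-like cells were left out. Of fibrocyte-like cells, 42 of 2959 and 41 of 964 were left out. The epithelium-like shares at the 2 ages thus cover differently selected cells. Atp1b1 was found in 88.2% of neuron-like cells, in 28.6% and 49.7% of epithelium-like cells at P1 and P7, and in 8.81% and 31.0% of fibrocyte-like cells, against a lowest share of 2.01% at P1 in endothelium-like and 1.95% at P7 in glia-like cells. Atp1b2 was found in 14.3% and 38.3% of pericyte-like cells and 1.98% and 14.5% of epithelium-like cells, and the lowest shares were 1.12% (2 of 178) in P1 macrophage-like cells and 0 of 156 P7 endothelium-like cells, which allows up to 1.92%. The shares in fibrocyte-like cells, 1.41% (1.01 to 1.90) and 2.28% (1.41 to 3.46), did not differ from these lowest classes beyond counting error. Kcnk2 was found in 17.5% and 30.8% of Aldh1a2 Ccn3 mesenchyme-like cells and 2.50% and 0.975% of fibrocyte-like cells, beside 0% and 0.621% of macrophage-like cells.

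Kcnj16 was found in 0.397% of P1 and 8.97% of P7 epithelium-like cells, and in 0 of 178 and 0 of 161 macrophage-like cells, which allows up to 1.69% and 1.86%. Before thinning, the median depth of the cells kept was 7591 and 7277 UMIs in macrophage-like, 9692 and 9352 in endothelium-like, 6067 and 9300 in fibrocyte-like, 8125.5 and 11175 in epithelium-like and 5068 and 5834 in pericyte-like cells. Slc12a2 was found in 44.3% and 37.9% of pericyte-like cells and 11.3% and 13.9% of fibrocyte-like cells, with the lowest shares 2.01% in P1 endothelium-like and 3.73% in P7 macrophage-like cells. The unthinned shares of Atp1b1 in fibrocyte-like cells were 21.9% and 68.9%.

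**Figure D4:**
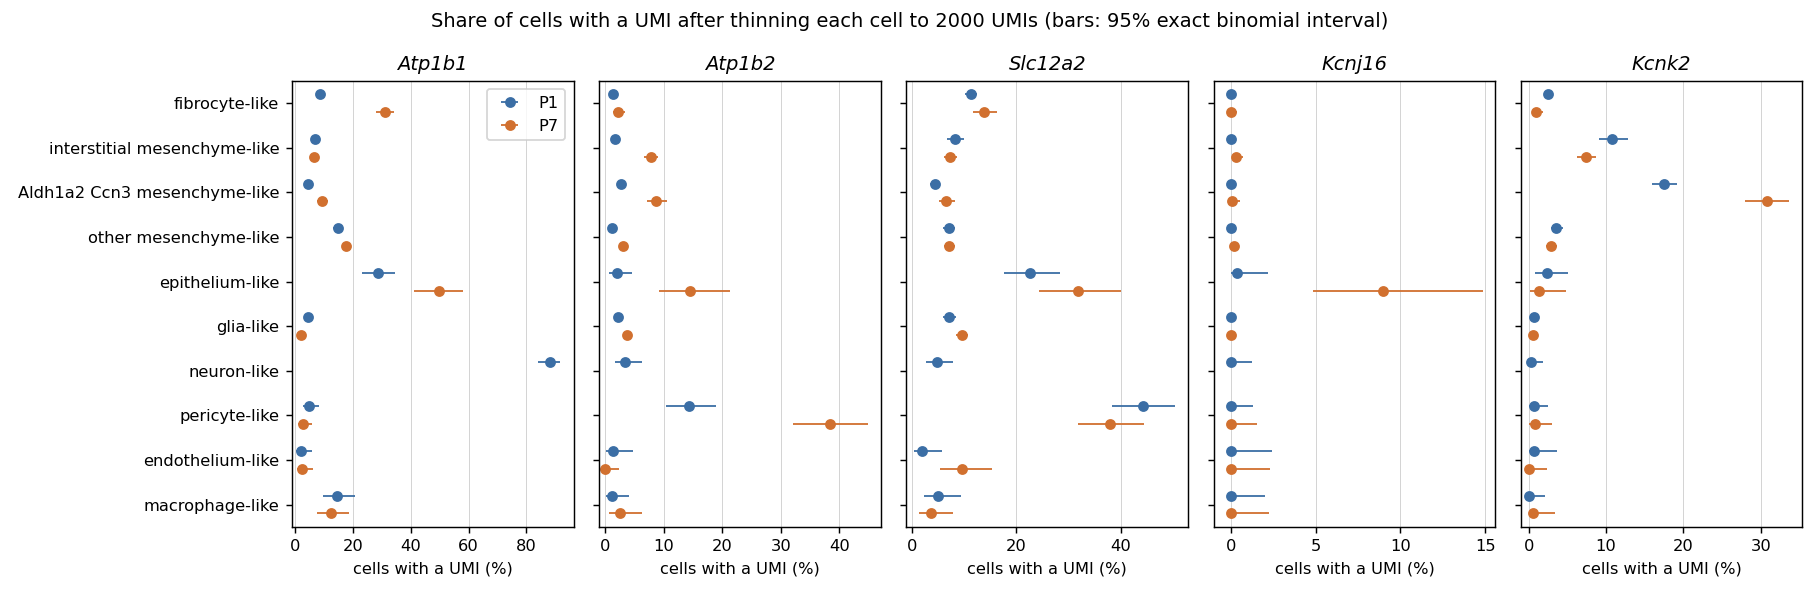
Share of cells (%) with at least 1 UMI of each of 5 genes after thinning to 2000 UMIs, by class and library, with exact binomial 95% intervals. Kcnk2 was found in 17.5% of P1 and 30.8% of P7 Aldh1a2 Ccn3 mesenchyme-like cells and in at most 10.8% of the cells of any other class.

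For each gene, the 3 genes with the most similar pattern were sought by Pearson's r of log2(CPM + 5) over 32 sums (cluster and library, 15 at P1 and 17 at P7) among 9557 genes; sums of 1 library share its depth and its free RNA. Kcnj16 was closest to Tmem171 (r = 0.99). Outside RC14 Kcnj16 was at 1.70 CPM or less in every sum, so this r rests mainly on RC14 (5.09 and 54.5 CPM). Kcnk2 was closest to Calb2, the calretinin gene (0.91), and Atp1b3 to Ppp2r5a (0.87) and Rhoa (0.87). Atp1b1 was closest to Ankrd13d (0.86), Pak3 (0.83) and Fabp3 (0.83). Atp1b2 was closest to Rasl12 (0.82) and Heyl (0.79), and Slc12a2 to Htra4 (0.84), which was also at rank 3 for Atp1b2 (0.79). Kcnj10 was closest to Mlip (0.91), but its own highest level was only 1.83 CPM.

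Of the other 56 genes counted for the pump, the cotransporters, their kinases and potassium channels, 20 reached 20 CPM in some class. In fibrocyte-like cells 9 did so. Of these, 2 were over 2-fold higher at P7, beside 10.8% of all genes: the potassium chloride cotransporter Slc12a4 (11.3 to 38.9 CPM) and the kinase Wnk4 (7.42 to 24.3 CPM), which acts on Slc12a2. Fxyd6, a pump regulator, was over 2-fold lower (53.5 to 24.2 CPM), beside 6.69% of all genes, and the median log2 ratio of the 9 was -0.047, against 0.13 over all genes. In epithelium-like cells 3 of 12 were higher (Fxyd1, Slc12a7 and Wnk1), beside 11.9% of all genes, and 0 lower, beside 6.06%, with a median of 0.58 against 0.14. The medians were larger in macrophage-like cells (0.86, 4 of 10 higher beside 12.7%), endothelium-like cells (0.76, 3 of 7 beside 9.7%) and Aldh1a2 Ccn3 mesenchyme-like cells (0.73, 3 of 9 beside 9.75%).

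Kcnj8, the channel of vascular ATP-sensitive potassium currents, was highest in pericyte-like cells, at 887 and 905 CPM, where Atp1b2 and Slc12a2 were high, and reached 21.2 CPM in P7 endothelium-like cells. Kcnk1 was at 76.4 and 112 CPM in epithelium-like cells and Kcnk13 at 12.3 and 65.9 CPM in interstitial mesenchyme-like cells. Kcnk13 was also at 34.7 CPM in macrophage-like and 24.7 CPM in other mesenchyme-like cells at P7. Kcne1, the accessory subunit of the channel that secretes potassium into endolymph, was at 9.34 and 17.1 CPM in epithelium-like cells. Macrophage-like cells had 24.3 CPM of Kcne1 (37 UMIs) at P1 and 0 UMIs at P7. Their cluster (RC16) had 14.2% of its cells called doublets. Its Epcam level was 14.4 CPM (22 UMIs) at P1 and 2.17 CPM (3 UMIs) at P7. The source of these Kcne1 UMIs was not tested. Fxyd7 (268 CPM) and Slc12a7 (124 CPM) were highest in neuron-like cells, and Fxyd1 in glia-like cells (488 and 570 CPM).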

How the data were processed

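Cochlear duct cells were captured with the 10x Genomics 3′ kit (V3). Per the file headers the authors made the deposited counts with Cell Ranger 3.1.0; the submitters' processing notes also name bcl2fastq and Seurat 3.1.1, and the methods name the rat genome rn6. The values used are deposited raw UMI counts per gene and barcode. A 3′ count holds no transcript length, so levels of different genes were not ranked against each other. As in the methods, barcodes were kept with between 500 and 5000 genes, a minimum of 500 UMIs and a mitochondrial share below 25%, which kept 90.8% of P1 and 86.8% of P7 barcodes. The number of cells kept at each age differed from the number the authors report under these limits. The upper limit on genes left out 191 P1 barcodes with neuron markers.

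Cells were clustered with Seurat 5.3.0 (R 4.3.3; 2000 variable genes less the members, pathway genes and markers, 10 principal components, resolution 0.8), with both libraries merged. A cluster was named for the list of markers whose mean log2 ratio was at least 1, with at least 3 markers found in at least 10% of its cells, and was left unnamed where over 50% of its cells were called doublets (Scrublet in scanpy 1.11.5), where several lists led, or where markers of another list were more frequent among its 10 leading genes. This rule was settled after the clusters were seen; 5 of 117 marker symbols were not matched. Doublets (4.87% and 6.16% of cells) were kept, and removed in an alternative. Unnamed clusters held 6.06% of P1 and 18.3% of P7 cells.

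Counts were summed per class and library and scaled to CPM, for classes or clusters of at least 50 cells. Intervals were exact Poisson for a sum, exact conditional binomial for a ratio of sums and Clopper-Pearson for a share; 3 UMIs were the limit where 0 were counted. A gene counted as past 2-fold when it had at least 20 CPM in either group compared. The members, the pathway lists and the markers were chosen with earlier results of these data known. Some pathway genes are not reported here and were left out of the counts and medians of these lists; they stayed out of the clustering. The text names the 7 members, pathway genes of at least 20 CPM that were high or past 2-fold, their 3 most similar genes and markers. Kcne1, also named, reached that level in macrophage-like cells. The promoters came from RefSeq; its build differs from rn6 and no coordinate was carried over.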

Additional observations from a re-analysis of the deposited data

Results flagged for a closer look

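The log2 ratio of Kcnk2 between the ages had opposite signs in separate classes, each drawn mainly from different clusters at P1 and P7. Its log2 ratio of P7 to P1 was 1.05 in Aldh1a2 Ccn3 mesenchyme-like cells and -1.59 in fibrocyte-like cells, and the difference between these was not tested, since each age had 1 library. In Aldh1a2 Ccn3 mesenchyme-like cells the ratio lay between 0.96 and 1.11 over the other settings, past 2-fold in 6 of 10. In fibrocyte-like cells the level was under 20 CPM at both ages. The ratio there lay between -1.74 and -0.73 over the other settings, past 2-fold in 6 of 10. At P7 these cells were at rank 7 of 9 classes with 5.30 CPM, below macrophage-like (11.6 CPM) and epithelium-like cells (7.71 CPM). Within RC0 Kcnk2 was at 16.0 CPM at P1 and 14.2 CPM (3.86 to 36.3) at P7, the latter from 4 UMIs. RC11 had 5.01 CPM at P7. Whether the fibrocyte-like ratio lay between ages or between clusters was not tested.

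The upper limit on genes left out P1 barcodes with neuron markers (at least 6 of 9 markers found and at least 0.5% of UMIs on them, a choice made after seeing the data). There were 191 such barcodes at P1, with Atp1b1 at 1226 CPM (1199 to 1254), beside 1364 CPM in the 312 barcodes with these markers under the limit. At P7 there were 8 barcodes under the limit, with 33 Atp1b1 UMIs, 897 CPM (617 to 1259), and 1 over it, with 84.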

How the results depend on the processing

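Of 17 log2 ratios past 2-fold with at least 10 UMIs on each side, 16 had a value under all 10 other settings; of these, 15 kept their direction and 9 also stayed past 2-fold in each. The ratio of Atp1b2 between the ages in other mesenchyme-like cells had a value under 3 of the 10, since the class had under 50 cells at an age in the others. The exception in direction was Slc12a2 between the ages in macrophage-like cells, which was 0.25 with doublets removed; the cause was not tested. The count of genes over 2-fold lower at P7 in fibrocyte-like cells, 0 in the text, was 1 with 30 principal components (Slc12a2), 1 with doublets removed and 1 with mitochondrial, ribosomal and haemoglobin UMIs left out of the total (both Kcnk2, which then passed 20 CPM). In P1 fibrocyte-like cells against all others, the count of higher genes, 0 in the text, was 1 (Slc12a2) with integration by canonical correlation analysis, resolution 1.2, 30 principal components, doublets removed or under 10% mitochondrial UMIs. The count of lower genes, 2 in the text, was 1 with doublets removed, under 10% mitochondrial UMIs or as a mean over cells, where the count in both directions was also 1. Of 88 counts, 76 stayed within 1.5 times. Of 35 ratios within 2-fold, 9 were past it in some setting, 3 of them in the other direction, all with 30 principal components: Atp1b1 (-1.86) and Slc12a2 (-1.46) in interstitial mesenchyme-like cells and Slc12a2 in fibrocyte-like cells (-1.19). Of the lists of 3 most similar genes, those of Slc12a2 and Kcnj16 shared 0 genes with a minimum of 50 CPM, and that of Atp1b2 shared 1 with a pseudocount of 1 CPM. Leaving out a library leaves no comparison between the ages. No paired analysis was possible because each age had 1 library. Depth limits Kcnj10, and Kcnj16 outside epithelium-like cells, to a few UMIs.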

Other observations

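After thinning to 2000 UMIs, Slc12a2 was found less often in P1 epithelium-like cells with an Atp1b1 UMI than in those without. Slc12a2 was found in 11.1% (4.92 to 20.7) of the 72 cells with an Atp1b1 UMI and in 27.2% of the 180 cells without. At P7 these shares were 30.6% (20.2 to 42.5) and 32.9%. Of the 13 P7 epithelium-like cells with a Kcnj16 UMI, 46.2% (19.2 to 74.9) had Atp1b1 against 50% of the 132 cells without, and 7.69% (0.195 to 36.0) had Slc12a2 against 34.1%. In P7 pericyte-like cells Slc12a2 was found in 46.7% (36.3 to 57.4) of the 92 cells with Atp1b2 and in 32.4% of the 148 without. These are shares of cells of 1 library, with no replicate, and the differences were not tested.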
